A study of Mus musculus with 11 samples.

Results

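The genes described here are 10 guidance genes: the ligand genes Slit2, Slit3, Ntn1, Ntn4 and Sema3c, and the receptor genes Robo1, Robo2, Neo1, Unc5b and Plxnb1. They were chosen by name and role, with earlier results of these data known. All of their probes, 13 in number, were found through the RefSeq accession that the array gives each probe. They stand among 20145 genes with a named probe on the array. The RNA came from mouse mammary epithelium that had grown out from cells transduced with a lentiviral hairpin and had then been sorted into basal and luminal cells by the surface markers CD24 and CD29. The groups were basal cells with the hairpin against Ror2, called shROR2 (3 arrays), basal cells with the control hairpin shLUC (3), luminal shROR2 cells (2) and luminal shLUC cells (3). Ror2 is a receptor of Wnt ligands, and the series asks what it does in each of these cell layers. Both hairpins were delivered to dissociated primary mammary epithelial cells, not to a sorted layer, and those cells were embedded in Matrigel for injection, so the controls also carry a lentivirus and also passed through transplantation. Mouse strain, age, the promoter of the vector and which samples shared an outgrowth are not given in the sources used here. The labels call the samples biological triplicates. The p values below rest on the spread between samples, with a single spread per feature shared by all groups, also where only some groups are compared.

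Values are processed signals, that is, the brightness of a probe after the scanner software had subtracted background and removed trends across the array, in arbitrary units. Levels of different probes are not compared. Between 52.8% and 59.5% of probes were well above background per array by the software's own flag, and the lowest signal with that flag was 10.8 to 14.2. The number of arrays limits the precision. The correlation between arrays within a group was 0.941 to 0.953 in basal shROR2, 0.976 to 0.982 in basal shLUC, 0.983 in luminal shROR2 and 0.981 to 0.983 in luminal shLUC cells, so the basal shROR2 arrays spread most. The shared spread of the main fit does not allow for this. Whether groups overlap was judged after scaling each array to its 75th percentile, the scale of all tests. The arrays lay on 2 slides, each with arrays of every group. The sorted layers carried the markers of their labels in shLUC cells: Acta2 (log2 change 8.22 ± 0.13) and Krt14 (5.35 ± 0.13) were higher in basal than in luminal cells, and Krt8 (-2.39 ± 0.13) and Krt18 (-2.87 ± 0.12) were lower. Ror2 itself was near background. Its probe read 16.8, 3.03 and 6.93 in basal shROR2 cells and 11.1, 12.1 and 10.1 in basal shLUC cells, and it read 3.54 and 8.47 in luminal shROR2 cells and 3.14, 3.44 and 3.48 in luminal shLUC cells. The array labelled basal shROR2 replicate 1 was the only one with Ror2 well above background, which goes against its label. Without it, 7 of the 10 genes were still called between the shROR2 layers and 0 in the basal hairpin comparison and the interaction. Signs that turned without it were those of Ntn1 between the shROR2 layers (0.03), of Slit2 in the basal hairpin comparison (0.06) and of Neo1 in the interaction (0.07), and Neo1 stood at 0.00 in the basal hairpin comparison.

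Slits are secreted proteins that bind Robo receptors, and netrins are laminin-related secreted proteins that bind neogenin (Neo1), DCC and the Unc5 receptors. Both systems were described as guides of growing axons. In the mouse mammary gland Slit2 and Slit3 acting through Robo1 restrain branching and hold the basal and luminal layers together, and netrin 1 with neogenin keeps the outer cap cells attached at the end bud. Semaphorin 3C signals through neuropilins and plexins, and plexin B1 is a receptor for class 4 semaphorins.

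In shLUC outgrowths 8 of the 10 genes were higher in basal than in luminal cells and 0 were lower. The other two, Ntn1 and Plxnb1, did not pass (limma, adjusted p under 0.05). Of the ligands, Slit2, Slit3, Ntn4 and Sema3c were higher in basal cells, and of the receptors Robo1, Robo2, Neo1 and Unc5b. Over all 29429 features tested, 26.9% passed in this comparison, 13.8% higher and 13% lower in basal cells. All 10 genes passed the filter on dim probes, but Slit3, Robo1, Robo2 and Ntn4 were well above background on basal arrays alone. Slit2 was so on the basal arrays and on 1 luminal array. These genes thus passed the filter through the group where they are high, which makes these counts a description. The median log2 change was 2.12 over the 10 genes and -0.06 over all features.

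**Figure D1:**
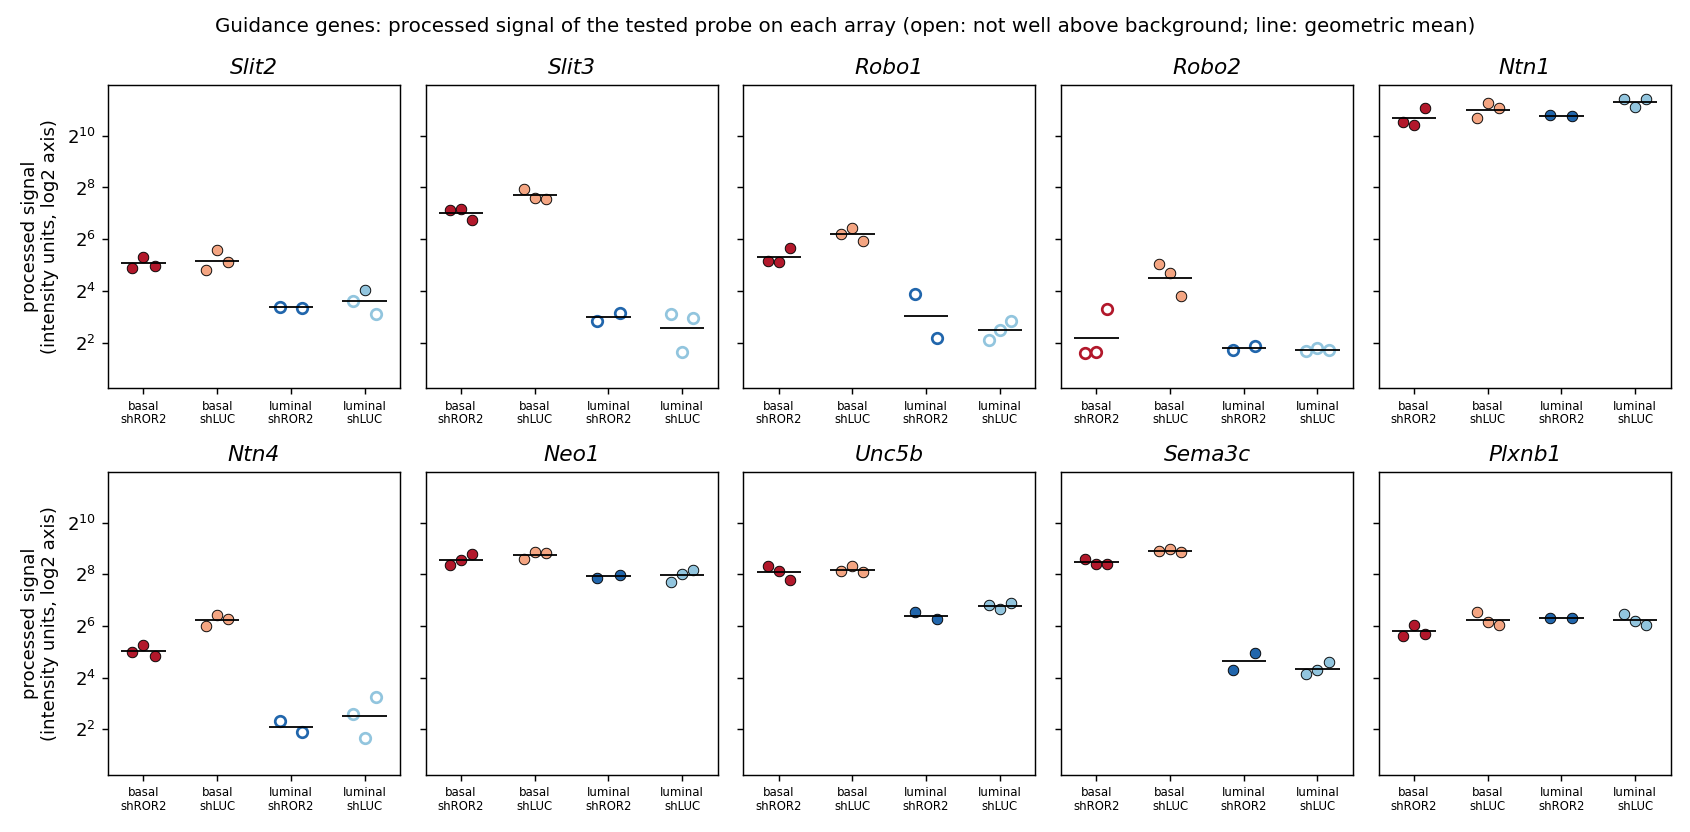
Processed signal (log2 axis, intensity units) of the tested probe of each gene on each of the 11 arrays, with the 4 groups along each horizontal axis; open circles were not well above background and lines are geometric means. Slit3, Robo1, Ntn4 and Sema3c stand highest in basal shLUC cells, then in basal shROR2 cells, and lowest in both luminal groups.

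Slit3, Robo1, Ntn4 and Sema3c shared an order of groups at their tested probes: basal shLUC above basal shROR2 above both luminal groups, with no overlap at either step. They were picked from the 10 by these values. The first step passed the threshold for none of them, and 11.8% of all features also showed it without overlap. The share of all features with both steps was not counted. Windows around the transcription start of these genes, from 250 bases before to 50 after it, are shown because they shared this order. They are as RefSeq gives them on build GRCm38.p6, read 5′ to 3′ on the gene's strand. Capitals mark the GC box GGGCGG and the E-box CAGGTG, each searched on both strands with overlapping matches counted. Slit3 lies at chr11:35121206-35121505, Robo1 at chr16:72662899-72663198, Ntn4 at chr10:93640799-93641098 and Sema3c at chr5:17574566-17574865, all on the plus strand.
Slit3: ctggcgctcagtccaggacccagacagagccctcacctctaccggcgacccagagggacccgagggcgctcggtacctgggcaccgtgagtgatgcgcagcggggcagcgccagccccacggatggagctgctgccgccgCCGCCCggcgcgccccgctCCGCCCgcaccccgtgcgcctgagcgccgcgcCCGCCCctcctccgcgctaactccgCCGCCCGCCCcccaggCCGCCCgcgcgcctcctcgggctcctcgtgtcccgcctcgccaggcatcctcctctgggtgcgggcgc
Robo1: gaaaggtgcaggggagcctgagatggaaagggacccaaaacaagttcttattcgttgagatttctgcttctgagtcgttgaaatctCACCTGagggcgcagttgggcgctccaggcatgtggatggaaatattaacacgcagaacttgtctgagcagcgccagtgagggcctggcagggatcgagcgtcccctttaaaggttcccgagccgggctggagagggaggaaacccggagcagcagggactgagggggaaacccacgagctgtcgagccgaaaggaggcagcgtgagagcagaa
Ntn4: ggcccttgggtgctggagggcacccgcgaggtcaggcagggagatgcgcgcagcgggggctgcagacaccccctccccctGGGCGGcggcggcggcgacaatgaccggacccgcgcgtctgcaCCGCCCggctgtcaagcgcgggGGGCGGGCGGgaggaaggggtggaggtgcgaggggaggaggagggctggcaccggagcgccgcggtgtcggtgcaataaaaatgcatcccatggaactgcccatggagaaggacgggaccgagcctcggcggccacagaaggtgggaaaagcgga
Sema3c: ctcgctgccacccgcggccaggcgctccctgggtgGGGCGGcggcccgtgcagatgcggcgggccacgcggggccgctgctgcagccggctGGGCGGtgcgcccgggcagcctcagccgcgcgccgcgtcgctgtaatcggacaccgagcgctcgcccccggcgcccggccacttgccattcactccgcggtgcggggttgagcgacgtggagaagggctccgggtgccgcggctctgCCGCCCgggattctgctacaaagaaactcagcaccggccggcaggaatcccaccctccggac
The Slit3 window held 6 GC boxes and 41 CpG dinucleotides at a GC content of 78.3%. The Ntn4 window held 4 GC boxes and 31 CpG (72%), and the Sema3c window 3 GC boxes and 42 CpG (75.7%). The Robo1 window held none of the GC boxes, 1 E-box and 15 CpG (57%). Over all 32851 windows in the table the median was 52.7% GC and 7 CpG, and 35.7% of windows held a GC box and 20.2% that E-box. The TEAD motif GGAATG (14.7% of all windows) and the AP-1 motif TGANTCA (7.81%) had no match in these 4 windows. Of all members, 9 had windows, 11 windows in all, and a TEAD motif was found once each in a Robo2 and in the Plxnb1 window. These matches describe letters only.

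Slit3, a secreted Robo ligand, read 139, 144 and 108 in basal shROR2 cells and 247, 192 and 187 in basal shLUC cells. On luminal arrays it was never well above background, at 7.05 and 8.74 with shROR2 and at 8.72, 3.08 and 7.74 with shLUC. In shLUC cells it was at least 15-fold higher in basal than in luminal cells (adjusted p = 1.33e-05; measured means 209 ± 33.5 against 6.51 ± 3.02, SD, n = 3 each). Such a bound was used wherever a group was dim on all its arrays. It divides the bright group's mean by the lowest flagged signal of any probe on the dim arrays, or by the dim probe's value if higher. That mark is a convention and no strict detection limit. A Robo2 probe, for example, read 17.6 without the flag in luminal shROR2 cells. The adjusted p beside a bound belongs to the fitted log2 change of the values as read, and the bound itself was not tested. Slit2, the other Slit ligand measured here, read 29.9, 40 and 31.2 in basal shROR2 cells and 28.2, 47.7 and 34.3 in basal shLUC cells. In luminal cells it read 10.5 and 10.1 with shROR2 and 12.2, 16.5 and 8.67 with shLUC, well above background on 1 of those arrays, a shLUC one. The basal shLUC arrays all lay above the luminal shLUC arrays, by 1.51 ± 0.25 on the log2 scale (adjusted p = 0.00199).

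Ntn4, which encodes a netrin found in basement membranes, read 32, 38.2 and 28.9 in basal shROR2 cells and 63.3, 85.8 and 76.4 in basal shLUC cells. It stayed under the background mark on the luminal arrays, at 4.99 and 3.70 with shROR2 and at 6.05, 3.19 and 9.47 with shLUC. In shLUC cells it was at least 5.39-fold higher in basal cells (adjusted p = 5.82e-05; means 75.2 ± 11.3 against 6.24 ± 3.14, SD, n = 3 each). Sema3c, the semaphorin ligand, was the only one of these 4 that could be measured on the luminal arrays. Its brighter probe read 382, 341 and 336 in basal shROR2 cells, 481, 505 and 463 in basal shLUC cells, 19.6 and 31.2 in luminal shROR2 cells and 17.7, 19.5 and 24.4 in luminal shLUC cells. In shLUC cells it was 22.7-fold higher in basal cells (log2 change 4.51 ± 0.19, adjusted p = 4.57e-07). The second Sema3c probe went the same way, at least 2.96-fold (adjusted p = 5.19e-05 in the fit on all probes).

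Ntn1, the netrin of the end bud, was measured by a bright and a dim probe that disagreed. The bright probe read 1490, 1380 and 2170 in basal shROR2 cells and 1660, 2470 and 2130 in basal shLUC cells, against 1780 and 1720 in luminal shROR2 cells and 2750, 2220 and 2770 in luminal shLUC cells. The raw signals of the shLUC layers overlapped and the scaled ones did not, and the log2 change was -0.38 ± 0.20 (adjusted p = 0.203). The dim probe read 13.5, 22.9 and 7.75 in basal shROR2 cells and 3.60, 7.21 and 10.1 in basal shLUC cells, the last 3 under the background mark. It read 34.5 and 24.4 in luminal shROR2 cells and 31.7, 31.8 and 33.5 in luminal shLUC cells, so that on this probe Ntn1 was at least 3.02-fold lower in basal than in luminal shLUC cells (adjusted p = 0.00323 in the fit on all probes). With the mean over both probes in place of the brighter one, the log2 change was -1.39 (adjusted p = 0.00191).

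Among the receptors, Robo1, through which Slits act in the mammary gland, read 35.7, 34.8 and 50 in basal shROR2 cells and 73.9, 87.4 and 61.1 in basal shLUC cells. The luminal values were 14.9 and 4.54 with shROR2 and 4.24, 5.60 and 7.15 with shLUC, none of them well above background. In shLUC cells it was at least 5.3-fold higher in basal cells (adjusted p = 0.000131; means 74.1 ± 13.2 against 5.66 ± 1.46, SD, n = 3 each). Robo2, a second Slit receptor, was well above background on the 3 basal shLUC arrays alone. Its tested probe read 3.03, 3.09 and 9.85 in basal shROR2 cells and 32.5, 25.5 and 14 in basal shLUC cells, with 3.32 and 3.62 in luminal shROR2 cells and 3.16, 3.46 and 3.24 in luminal shLUC cells. That made it at least 1.64-fold higher in basal than in luminal shLUC cells (means 24.0 ± 9.32 against 3.29 ± 0.154, SD, n = 3 each). The adjusted p of 0.00238 in limma belongs to the fitted log2 change of 2.72, which rests on luminal values under the background mark. The other Robo2 probe was never well above background.

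Neo1, the netrin receptor neogenin, was well above background in every sample. It read 329, 378 and 438 in basal shROR2 cells and 383, 464 and 449 in basal shLUC cells, against 231 and 253 in luminal shROR2 cells and 208, 257 and 286 in luminal shLUC cells. The layers did not overlap, and the shLUC difference was 0.73 ± 0.16 (adjusted p = 0.00837). Unc5b, a repulsive netrin receptor also known from endothelium, read 320, 283 and 222 in basal shROR2 cells and 281, 321 and 270 in basal shLUC cells. In luminal cells it read 91.8 and 77.6 with shROR2 and 111, 101 and 119 with shLUC, and the shLUC layers differed by 1.33 ± 0.14 (adjusted p = 0.00016). Plxnb1, the plexin, read 49.4, 65.8 and 52.0 in basal shROR2 cells, 92.1, 71.0 and 66.5 in basal shLUC cells, 79.3 and 79.7 in luminal shROR2 cells and 87.1, 73.3 and 66.3 in luminal shLUC cells. The shLUC layers overlapped, at -0.05 ± 0.19 (adjusted p = 0.873; 95% interval -0.47 to 0.37).

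In shROR2 outgrowths 7 of the 10 genes were higher in basal than in luminal cells and 0 were lower, beside 22.9% of all features, 10.6% higher and 12.3% lower. Slit3, Robo1 and Ntn4 passed the filter through basal arrays alone, and Slit2 was dim on the luminal shROR2 arrays. This count is therefore a description too. Slit3 was at least 9.75-fold higher (adjusted p = 0.000141; means 130 ± 19.5 against 7.90 ± 1.19, SD), Robo1 at least 2.83-fold (0.00439; 40.2 ± 8.53 against 9.71 ± 7.31), Slit2 at least 2.52-fold (0.00195; 33.7 ± 5.51 against 10.3 ± 0.291) and Ntn4 at least 2.48-fold (0.000552; 33.0 ± 4.74 against 4.35 ± 0.911), with n = 3 basal and 2 luminal arrays in limma. Sema3c (log2 change 3.88 ± 0.21, adjusted p = 3.91e-06), Unc5b (1.74 ± 0.16, 8.23e-05) and Neo1 (0.70 ± 0.18, 0.0198) were higher too. Ntn1 stood at -0.04 ± 0.22 (0.928) at its bright probe and Plxnb1 at -0.47 ± 0.21 (0.146), although the Plxnb1 arrays of the layers did not overlap. The dim Ntn1 probe stood at -1.06 ± 0.48 (0.151 in the limma fit on all probes), and its arrays of the layers did not overlap either. Robo2 was dim in both layers. Neo1 lost its call without luminal shROR2 replicate 1 or 2, and Neo1 and Robo1 lost theirs when the fit held the compared groups alone.

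**Figure D2:**
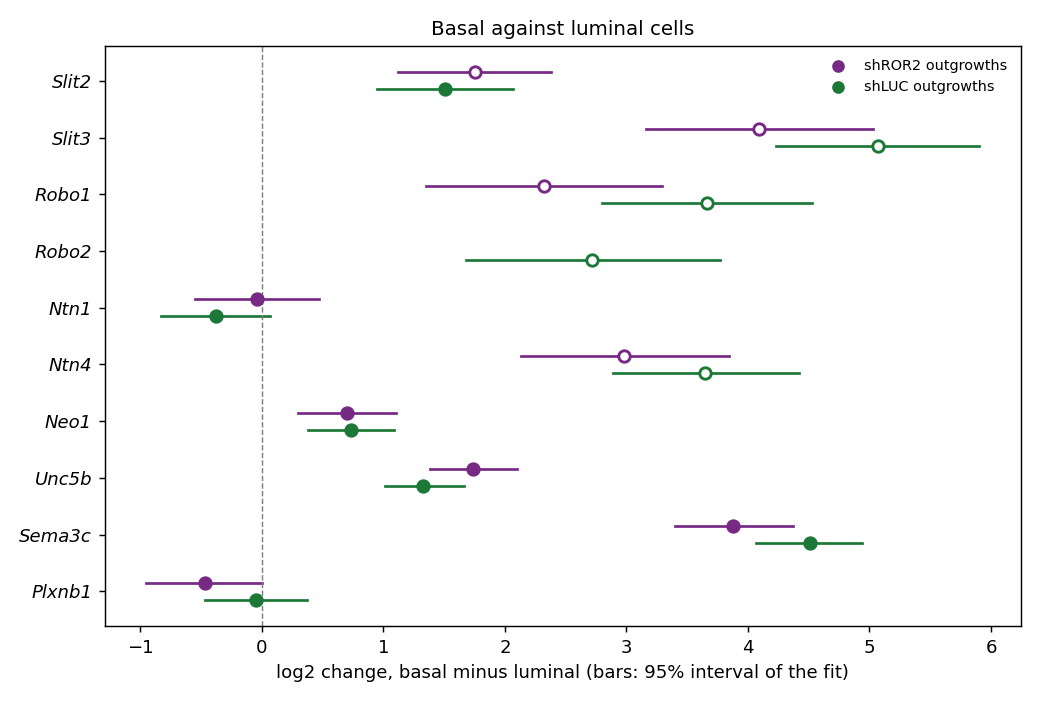
Log2 change of each gene, basal minus luminal, with its 95% interval from the fit, in shROR2 (purple) and shLUC (green) outgrowths; open circles mark comparisons in which a group was dim, where the fitted value is no bound. Sema3c lies at 3.88 in shROR2 and 4.51 in shLUC outgrowths, and Ntn1 and Plxnb1 lie near or below 0.

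Within each slide, the shLUC log2 changes, basal over luminal, were 4.70 and 4.36 for Sema3c on slide 1 and on slide 2. They were 1.32 and 1.82 for Slit2, 0.96 and 0.60 for Neo1, and 1.27 and 1.38 for Unc5b. Slit3, Robo1, Robo2 and Ntn4 were above the background mark on the basal shLUC arrays and under it on the luminal arrays of both slides, so their fitted values there are no bounds. Ntn1 stood at -0.58 and -0.18 and Plxnb1 at -0.19 and -0.15. Fitted with a slide term, 7 genes were called in shROR2 and 8 in shLUC cells. The shLUC changes were smaller under normexp background correction, which adds an offset, and that of Sema3c was 2.54.

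Transcripts that mark some other cell types differed between the layers, and Slit2, Slit3 and Sema3c are known from fibroblasts and Unc5b from endothelium. All 8 fibroblast markers were higher in basal than in luminal shLUC cells, and 6 of 8 in shROR2 cells. Their summed signal, in units of each array's 75th percentile, was 54.8 to 71.9 in basal shROR2 cells, 58.4 to 64.1 in basal shLUC cells, 11.4 to 12 in luminal shROR2 cells and 6.63 to 6.8 in luminal shLUC cells. Lum, Pdgfra and Postn were not well above background on any luminal array, and Pdgfra was on the 3 basal shLUC arrays alone. The 8 endothelial markers summed to 41.2 to 47.7 in basal shROR2 cells, 21.8 to 26.6 in basal shLUC cells, 14.2 to 14.7 in luminal shROR2 cells and 11.3 to 12 in luminal shLUC cells, and 6 of 8 were higher in basal cells with either hairpin. The 10 myoepithelial markers summed to 1780 to 1870 in basal shROR2, 1870 to 2160 in basal shLUC, 124 to 130 in luminal shROR2 and 118 to 125 in luminal shLUC cells. The 10 luminal markers summed to 74 to 93.9 in basal shROR2, 62.4 to 65.5 in basal shLUC, 540 to 580 in luminal shROR2 and 481 to 508 in luminal shLUC cells. Pericyte markers were mixed. Of 6 tested, 2 were higher and 1 lower in basal than in luminal shLUC cells, and 3 were higher and 1 lower in shROR2 cells. Notch3 was the lower one (-2.01 ± 0.31 with shLUC, -1.46 ± 0.35 with shROR2). Of 7 leukocyte markers 0 were higher in basal cells, and 4 were lower with shLUC and 2 with shROR2. The part of all these cell types in the guidance genes was not tested. In sorted bulk samples, fewer cells of a type and less RNA per cell cannot be told apart.

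**Figure D3:**
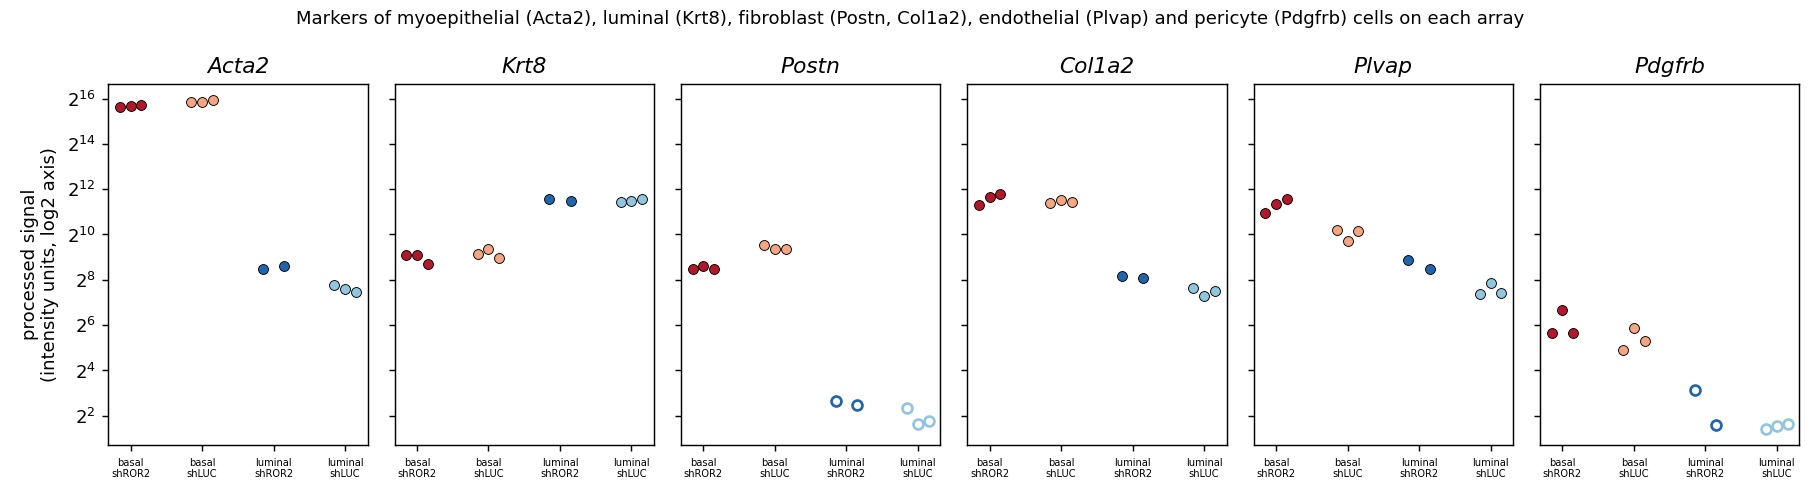
Processed signal (log2 axis, intensity units) of 6 marker genes on each array, with the 4 groups along each horizontal axis and open circles for values not well above background. Acta2, Postn, Col1a2, Plvap and Pdgfrb lie higher in basal than in luminal cells, Krt8 lies lower, and Plvap lies higher in basal shROR2 than in basal shLUC cells. Pdgfrb does not stand for all pericyte markers, since Notch3, not drawn, was lower in basal cells.

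The hairpin comparison in basal cells asked what the hairpin against Ror2 changed in that layer. Of the 10 genes 0 passed in either direction, beside 0.948% of all features (0.374% higher and 0.574% lower in shROR2). At an unadjusted p under 0.05, 4644 features stood out. For Slit3, Robo1, Robo2, Ntn4 and Sema3c every shROR2 array lay below every shLUC array, 5 of 10 genes beside 11.8% of all features. The log2 changes were all below 0, with a median of -0.37 against -0.05 over all features, though those of Slit2 and Unc5b lay above 0 with median scaling, normexp correction or the authors' table, that of Ntn1 at 0.45 with the mean over its probes, and that of Plxnb1 at 0.08 on slide 2. Genes were chosen with such values known, so these counts are descriptive.

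Robo2 had the smallest p of these genes in basal cells. It was under the background mark on the 3 shROR2 arrays and above it on the 3 shLUC arrays, at least 1.73-fold lower with shROR2, with an adjusted p of 0.0678 (means 5.32 ± 3.92 against 24.0 ± 9.32, SD, n = 3 each). The probe outside the filter read 5.85, 3.26 and 4.28 in basal shROR2 cells and 16.5, 13.4 and 8.90 in basal shLUC cells, all under the mark. Values under the mark in both groups have no order here. The tested probe passed the filter through the basal shLUC arrays alone. Without single arrays its adjusted p ran from 0.0124 to 0.192, and it passed without basal shROR2 replicate 3, the array of its group nearest the shLUC arrays. Without the array labelled basal shROR2 replicate 1 its adjusted p was 0.0788.

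Ntn4 was next, at -1.10 ± 0.34 (adjusted p = 0.167), with 33.0 ± 4.74 in basal shROR2 cells and 75.2 ± 11.3 in basal shLUC cells (SD, n = 3 each). Its level with shROR2 was 0.465 of that with shLUC. Robo1 stood at -0.81 ± 0.38 (0.349), Slit3 at -0.60 ± 0.37 (0.473) and Sema3c at -0.37 ± 0.19 (0.387). Under normexp background correction Ntn4 (-0.45, adjusted p = 0.025) and Robo1 (-0.41, 0.0389) passed, and Ntn4 passed in the authors' table (-0.43, 0.0312). The second Sema3c probe overlapped between the hairpins (16.5, 17.4 and 38.0 with shROR2, 32.5, 51.1 and 41.5 with shLUC; -0.80 ± 0.34, 0.292). Without the array labelled basal shROR2 replicate 1 the log2 changes were -1.08 for Ntn4, -0.73 for Robo1, -0.65 for Slit3 and -0.43 for Sema3c, none past the threshold. On slide 1 and slide 2 they were -1.17 and -0.98 for Ntn4, -0.64 and -1.14 for Robo1, -0.79 and -0.23 for Slit3, and -0.37 and -0.38 for Sema3c.

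The remaining basal values overlapped between the hairpins after scaling. Plxnb1 stood at -0.37 ± 0.19 (95% interval -0.80 to 0.05), Ntn1 at -0.24 ± 0.20 (-0.70 to 0.21) and Neo1 at -0.10 ± 0.16 (-0.46 to 0.26). Slit2 stood at -0.02 ± 0.25 (-0.58 to 0.54) and Unc5b at -0.01 ± 0.14 (-0.34 to 0.31). The dim Ntn1 probe read the other way, at least 1.27-fold higher with shROR2 (adjusted p = 0.246), with 2 of 3 shROR2 and 0 of 3 shLUC arrays well above background. Marker sums moved in basal cells as well. Beside the endothelial sums above, 2 of 8 endothelial markers were higher with shROR2 (Emcn 1.5 ± 0.28 and Plvap 1.35 ± 0.24), as were 3 of 7 leukocyte and 1 of 3 adipocyte markers. Leukocyte markers summed to 89.5 to 98.2 with shROR2 and 59.5 to 62.8 with shLUC, and adipocyte markers to 44.4 to 54.5 with shROR2 and 22.7 to 25.7 with shLUC. These sums do not speak for every marker. Cd74 read 3220 to 4120 with shROR2 and 1460 to 1860 with shLUC. Ptprc (40.9 to 64.3 and 41.7 to 63.5) and Csf1r (3700 to 4390 and 3980 to 4660) overlapped. The adipocyte sum was mostly Fabp4, at 4980 to 6230 with shROR2 and 2640 to 2920 with shLUC. Plin1 overlapped (26.4 to 46.6 and 18.5 to 35), and Lep was under the background mark on every array. Of the fibroblast and myoepithelial markers 0 passed, and the log2 changes of 5 of the 8 fibroblast markers lay above 0 (median 0.21), while Postn read 357 to 390 with shROR2 and 650 to 737 with shLUC. The part of these cells in the basal values was not tested.

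**Figure D4:**
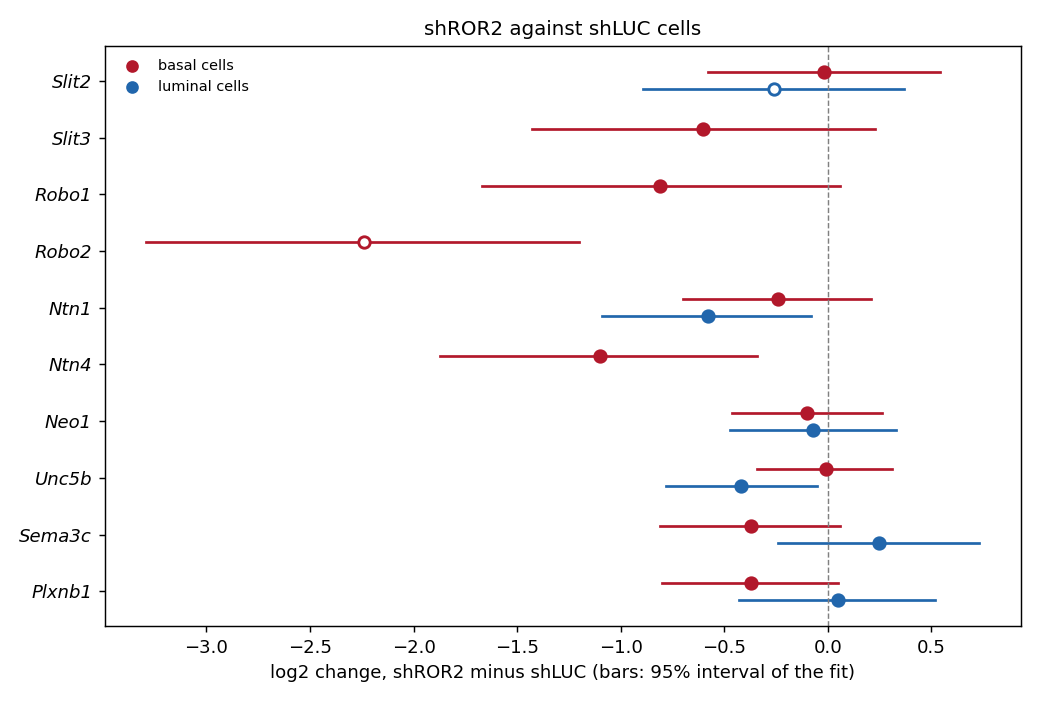
Log2 change of each gene, shROR2 minus shLUC, with its 95% interval from the fit, in basal (red) and luminal (blue) cells; the open circles mark a dim group, and no luminal value is drawn for Slit3, Robo1, Robo2 and Ntn4, which were dim in both luminal groups. The basal values run from -2.24 for Robo2 to -0.01 for Unc5b, and none passed the threshold after adjustment.

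In luminal cells, where the hairpin comparison rests on 2 shROR2 and 3 shLUC arrays, 0 of the 10 genes passed, beside 0.0034% of all features (1 of 29429, and 1633 at an unadjusted p under 0.05). Ntn1 and Unc5b were the 2 of 10 genes whose shROR2 arrays all lay below the shLUC arrays, beside 14.2% of all features. Ntn1 averaged 1750 ± 42.2 in shROR2 and 2580 ± 310 in shLUC cells (-0.58 ± 0.22, adjusted p = 0.795), a difference that its dim probe did not show (-0.19 ± 0.48). Unc5b averaged 84.7 ± 10.1 in shROR2 and 110 ± 8.88 in shLUC cells (-0.42 ± 0.16, 0.795). On slide 1 and slide 2 these changes were -0.73 and -0.51 for Ntn1 and -0.38 and -0.48 for Unc5b. Sema3c (0.25 ± 0.21), Plxnb1 (0.05 ± 0.21) and Neo1 (-0.07 ± 0.18) overlapped between the hairpins. Slit2 (-0.26 ± 0.28) was dim with shROR2, and Slit3, Robo1, Robo2 and Ntn4 were dim in both luminal groups and give no fold. The luminal fibroblast and endothelial sums given above were higher with shROR2, as were the adipocyte sum (11.1 to 12.9 with shROR2, 5.59 to 7.12 with shLUC) and the leukocyte sum (108 to 110 with shROR2, 85.5 to 86.9 with shLUC). Fabp4 again made up most of the adipocyte sum (1280 to 1440 with shROR2, 622 to 769 with shLUC). Of the leukocyte markers, Cd74 (4260 to 5190 and 3010 to 3270) and H2-Ab1 (3560 to 3660 and 2190 to 2460) lay higher with shROR2. The dimmer Lyz2 and C1qa did too. Csf1r (3930 to 3990 and 3970 to 4170), Ptprc (47.3 to 65.3 and 40.8 to 61.5) and Cd3e overlapped. The planned pericyte sum, nearly all of it Mcam, was not higher (944 to 962 with shROR2, 958 to 1090 with shLUC). Without Mcam, a choice made after seeing the data, it was higher (4.16 to 4.73 with shROR2, 3.16 to 3.43 with shLUC). That sum was mostly Notch3 (311 to 332 and 248 to 300), while Cspg4 read 14.8 to 17.1 and 15.9 to 24. Of these markers 0 passed there, and their part in these values was not tested.

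The difference between the hairpin's changes in the layers, basal minus luminal, was tested as an interaction. Of the 10 genes 0 passed, as did 0% of all features, with 2443 at an unadjusted p under 0.05. Robo2 stood at -2.29 ± 0.69 (adjusted p = 0.452) and Robo1 at -1.34 ± 0.57 (0.589), both resting on luminal values near background. Sema3c, measured in every group, stood at -0.62 ± 0.29 (0.617) and Unc5b at 0.41 ± 0.21 (0.668). A hairpin change in 1 layer alone was thus not shown for any of these genes.

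Across the 11 arrays Slit3, Robo1, Ntn4 and Sema3c correlated with each other at 0.93 to 0.99 (Pearson, scaled log2 signal), and Unc5b with Sema3c at 0.96. Ntn1 and Plxnb1 ran against most of the others, at -0.42 and -0.45 with Sema3c. These arrays fall into 2 layers, so the values mostly restate the layer difference, and no p is given. The named genes with patterns most like those of the ligands were Lrp1 (0.999) for Sema3c, Sh2d5 (0.995) and Has2 (0.994) for Slit3, Hs6st1 (0.988) and S100a10 (0.985) for Ntn4, Prtn3 (0.984) and Nrg1 (0.98) for Slit2, and Nuak2 (0.936) and Ulk4 (0.908) for Ntn1. For the receptors they were Fras1 and Kcnh3 (0.982 each) for Robo1, Smarca5 (0.971) and Cdk15 (0.962) for Robo2, Creb3l2 (0.978) and Nup98 (0.974) for Neo1, Azin1 and Plat (0.984 each) for Unc5b, and Etaa1 (0.893) and Fahd1 (0.888) for Plxnb1. The second gene for Sema3c was Gm17019 (0.998).

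Other genes of these pathways divided between the layers too. Of 19 further genes of the Slit and Robo pathway, 17 were tested, and 6 were higher and 2 lower in basal than in luminal shROR2 cells (median 0.19), with 8 higher and 3 lower in shLUC cells (median 0.40). The medians of all features were -0.08 with shROR2 and -0.06 with shLUC. Of all features 10.6% were higher and 12.3% lower in basal cells with shROR2, and 13.8% higher and 13% lower with shLUC. These shares and medians stand beside the counts of all 4 lists. The lists were not tested as sets, so their counts are descriptive. Cxcl12, the chemokine whose signalling Slit and Robo restrain in breast epithelium, read 3530 to 3580 in basal shROR2, 4390 to 4570 in basal shLUC, 175 to 185 in luminal shROR2 and 99.8 to 126 in luminal shLUC cells. It was higher in basal cells by 4.35 ± 0.13 with shROR2 and by 5.24 ± 0.11 with shLUC, and its basal and luminal arrays did not overlap. The Slit-binding proteoglycan gene Gpc1 was higher in basal cells by 1.16 ± 0.11 with shROR2 and 1.94 ± 0.10 with shLUC, and Dag1, which encodes the Slit-binding dystroglycan, by 1.47 ± 0.16 with shROR2 and 1.87 ± 0.14 with shLUC. The syndecan gene Sdc1 was higher by 1.81 ± 0.13 with shLUC, and the adaptor gene Nck2 was lower in basal than in luminal shROR2 cells (-1.83 ± 0.17).

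Of 21 further netrin and neogenin pathway genes, 16 were tested, with 5 higher and 1 lower in basal than in luminal shROR2 cells (median 0.39) and 6 higher and 2 lower in shLUC cells (median 0.34). Itga6, an integrin gene, was higher in basal cells by 1.32 ± 0.11 with shROR2 and 1.36 ± 0.10 with shLUC. Ntng2, a membrane-anchored netrin, was dim in luminal cells and so passed the filter through the basal arrays. It was at least 2.45-fold higher in basal cells with shROR2 and 4.43-fold with shLUC. Arhgef12 was higher by 0.83 ± 0.16 with shROR2 and 1.13 ± 0.14 with shLUC, and Trio, which encodes an exchange factor, by 0.83 ± 0.14 with shLUC. Dscam, a netrin receptor in neurons, was at least 7.64-fold lower in basal than in luminal shROR2 cells, and it passed the filter through the luminal arrays.

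Of 19 further semaphorins, 15 were tested, with 6 higher and 1 lower in basal than in luminal shROR2 cells (median 0.95) and 7 higher and 2 lower in shLUC cells (median 0.89). Sema5a was at least 15-fold higher in basal cells with shROR2 and higher by 4.35 ± 0.34 on the log2 scale with shLUC, where it was well above background on 1 of 3 luminal arrays. Sema4g (2.14 ± 0.32 and 2.65 ± 0.28) and Sema6a (1.26 ± 0.15 and 1.54 ± 0.14) were higher in basal cells with shROR2 and with shLUC, as were Sema6b with shROR2 (1.33 ± 0.20) and Sema3b with shLUC (2.37 ± 0.35). Of 18 plexins, neuropilins and plexin partners, 17 were tested, with 5 higher and 3 lower in basal than in luminal shROR2 cells (median 0.15) and 6 higher and 4 lower in shLUC cells (median 0.00). Plxna4 was at least 5.64-fold (shROR2) and 4.71-fold (shLUC) higher in basal cells, and Nrp2, a semaphorin co-receptor gene, was higher by 2.23 ± 0.19 with shROR2 and 1.59 ± 0.17 with shLUC. Plxna2 was higher by 3.66 ± 0.55 with shLUC, and Plxnb2, the relative of Plxnb1, was lower there (-0.68 ± 0.10). Sema5a, Plxna4 and Plxna2 could not have passed the filter without the basal arrays, where they are high.

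**Figure D5:**
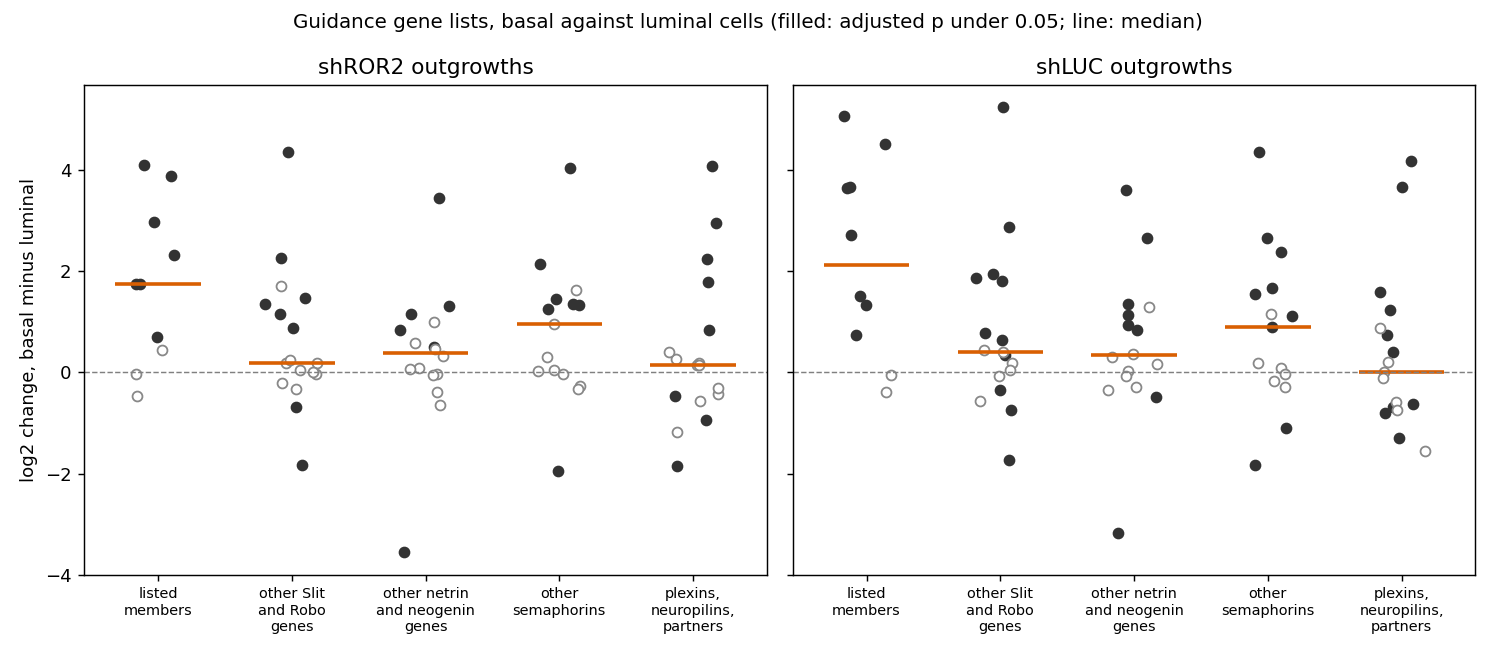
Log2 change, basal minus luminal, of every tested gene of 5 lists in shROR2 and shLUC outgrowths; filled circles passed an adjusted p of 0.05, and bars are list medians. The listed 10 genes have medians of 1.75 in shROR2 and 2.12 in shLUC outgrowths, and every other list holds genes called in both directions.

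With the hairpin, 0 genes of these 4 lists passed in basal cells, in luminal cells or in the interaction. The smallest p in basal cells within each list belonged to Gpc1 (-0.51 ± 0.10, adjusted p = 0.0625), Trio (-0.48 ± 0.14, 0.149), Sema4a (0.74 ± 0.15, 0.0596) and Rnd1 (1.17 ± 0.24, 0.0687). Sema4a, a class 4 semaphorin, read 358, 279 and 266 in basal shROR2 cells and 201, 178 and 188 in basal shLUC cells, and the groups did not overlap. It stood at 0.78 ± 0.16 in luminal cells (0.318), where Cxcl12 (0.63 ± 0.13, 0.318), Rgmb (-0.78 ± 0.25, 0.695) and Rnd3 (-0.30 ± 0.12, 0.833) had the smallest p of the other lists. In the interaction these were Cxcl12 (-0.88 ± 0.17, 0.245), Lrig2 (0.43 ± 0.16, 0.533), Rnd3 (0.42 ± 0.16, 0.537) and Sema3g (0.83 ± 0.37, 0.609).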

How the data were processed

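RNA from sorted cells was amplified and hybridized to one-colour Agilent arrays, per the labels' protocols. Each deposited scanner file gives intensity after background subtraction and detrending within its array, per the file headers. The authors' deposited table holds intensity on a linear scale, not centred (column medians 92.04 to 92.83), with its normalization unknown. Probes (55681) were named through RefSeq accessions with a GRCm38.p6 gene table, used for names only, and 26582 had a symbol. Spots of a probe were averaged without control and outlier spots (110 to 163 per array), and 0 were saturated. Log2 processed signal minus the array's 75th percentile was tested for probes well above background on at least 3 of 11 arrays, with the probe of highest mean for each gene (29429 features, 14068 named). limma 3.58.1 (lmFit, eBayes, 4 group means, R 4.3.3) gave 2-sided p values adjusted by Benjamini and Hochberg within each comparison, called under 0.05. A ± beside a log2 change is the fit's standard error. Alternatives were normexp (offset 50, on median signals, since the files hold no mean signals), quantile or median scaling, the authors' table, other filters on dim probes, the mean over probes, a slide or replicate block, each slide alone, the compared groups alone, array weights per group, and leaving out each array. Samples of the same number in the labels showed no shared deviations (correlations -0.04 to 0.04 over 15 pairs), and the main fit did not pair them. With so few arrays this cannot show whether they shared an outgrowth. The guidance genes and lists were chosen with earlier results of these data known. Named genes of each list are up to 4 of smallest p among those called, or the 1 of smallest p where none was, and for likeness the 2 highest correlations. Some results that this rule picked are not reported here. Emcn, Plvap, Lum, Pdgfra, Postn, Notch3, Cspg4, Cd74, H2-Ab1, Lyz2, C1qa, Ptprc, Csf1r, Cd3e, Fabp4, Plin1 and Lep were named from the marker lists after their values were seen. The fit was tested on simulated data. Figures used Python 3.11.15 and matplotlib 3.10.9.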

Additional observations from a re-analysis of the deposited data

How the results depend on the processing

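The number of guidance genes called was within 1.5 times of the reported one under most settings. In basal cells the hairpin gave 2 calls with normexp correction, 1 with the authors' table and 0 to 1 without single arrays. On slide 1 and slide 2 alone, with 1 or 2 arrays a group, the layer comparison called 3 and 2 genes in shROR2 cells and 4 and 3 in shLUC cells, since fewer samples were fitted. The replicate block gave 7 calls in shROR2 and 8 in shLUC cells for the layers and 0 for the hairpin and the interaction, so it changed no call. That cannot show whether samples of the same number shared an outgrowth. Without single arrays the layer comparison gave 6 to 7 in shROR2 cells and 8 in shLUC cells. Some changes turned sign, and their cause was not tested. In basal cells, shROR2 over shLUC, Slit2 stood at 0.02 (normexp), 0.05 (median scaling), 0.00 (authors' table) and 0.00 (slide 1), Unc5b at 0.01, 0.06, 0.03 and 0.01 (slide 2), Plxnb1 at 0.08 (slide 2) and Ntn1 at 0.45 (mean over probes). In luminal cells Slit2 stood at 0.01 (authors' table), Neo1 at 0.05 (slide 1) and 0.02 (replicate block), and Plxnb1 at -0.24 and -0.02. In the interaction Neo1 stood at 0.01 (quantile) and 0.03 (median scaling), Slit2 at -0.01 (authors' table) and Ntn1 at -0.15 (slide 2). For the layers in shROR2 cells Ntn1 stood at 0.01 (median scaling) and 0.11 (slide 1). Without single arrays, and leaving out comparisons in which both groups were dim, ranges that crossed 0 were -0.17 to 0.12 (Slit2), -0.13 to 0.13 (Unc5b) and -0.22 to 0.00 (Neo1) for the hairpin in basal cells, and -0.18 to 0.03 (Neo1), -0.05 to 0.17 (Plxnb1) and -0.12 to 0.62 (Sema3c) in luminal cells. They were -0.14 to 0.08 for Neo1 in the interaction, -0.25 to 0.10 for Ntn1 between shROR2 layers and -0.22 to 0.07 for Plxnb1 between shLUC layers. Slit3, Robo1, Robo2 and Ntn4 lay near background in luminal cells, which limits their folds to bounds.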
